A study of Mus musculus with 2 samples.

Results

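Mural cells are the cells of the blood vessel wall that lie outside the endothelium: pericytes along capillaries and vascular smooth muscle cells around arterioles and venules. They were taken here from 2 single-cell RNA-seq libraries of injured mouse tibialis anterior muscle, the muscle at the front of the shin. Members were chosen by measured UMIs (unique molecular identifiers, random tags that let copies of 1 captured molecule be counted as 1), so the genes below are no evidence of identity by themselves. A barcode needed 5000 or more UMIs and at most 10% mitochondrial UMIs. It also needed at least 8 UMIs over Rgs5, Kcnj8, Abcc9, Myh11 and Notch3, with at most 2 over Cdh5, Csf1r, Pdgfra and Cdh15, which mark endothelial cells, mononuclear phagocytes, fibro-adipogenic cells and muscle stem cells. This gave 221 members of 13508 barcodes with that depth, 134 of 6786 in the KO library and 87 of 6722 in the WT library. No member barcode was shared between the libraries.

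The KO library was made from conditional Setdb1 knockout mice, and the WT library from mice labelled WT, all aged 8 to 12 weeks. Setdb1 encodes a histone methyltransferase that places repressive trimethylation on lysine 9 of histone H3, and the series concerns its role in muscle stem cells during regeneration. Cells were released with collagenase II and dispase and sorted with Hoechst and propidium iodide, and 10x Genomics 3' version 2 libraries were made. Whether the WT mice carried floxed alleles or Cre, the injury, the day after it, the number of animals pooled, the cell type in which Cre acted and the deleted exon were not given in these sources. With 1 library per group no test between animals exists. Every interval below is a 95% interval that covers counting error only, and a difference between the libraries can come from the animals, the dissociation or the genotype, which cannot be told apart.

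Pericytes share a basement membrane with the endothelium. They depend on platelet-derived growth factor B from endothelial cells acting on their receptor Pdgfrb, and on Notch3. Kcnj8 and Abcc9 encode both parts of the ATP-sensitive potassium channel of pericytes, and Rgs5 encodes a regulator that shortens G protein signalling. Smooth muscle cells contract through smooth muscle myosin (Myh11), alpha actin (Acta2), transgelin (Tagln), calponin (Cnn1) and the regulatory light chain Myl9. The transcription factor SRF drives many of these genes from a DNA element named the CArG box.

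The members held 1686436 UMIs in the KO and 951085 in the WT library. Their median depth was 10639 UMIs in KO and 9183 in WT, against 12017.5 UMIs in KO and 12231.5 in WT over all barcodes of the same limits. The marker sum had a median of 89 UMIs in KO and 73 in WT members. Just inside the limit, with a sum of 8 or 9, were 2 KO and 0 WT members, and just outside it, with 6 or 7, were 6 KO and 2 WT barcodes. A further 115 KO and 135 WT barcodes reached the marker sum but carried more than 2 UMIs of the other cell types' genes. The highest of those genes was Cdh5 in 67 KO and 108 WT of these barcodes, and Csf1r in 27 KO and 15 WT.

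The label was checked against marker lists of 10 other cell types, summed per member. Phagocyte markers had a median of 0.140% of UMIs in KO and 0.139% in WT members, with highest values of 9.05% in KO and 12.8% in WT. Endothelial markers had a median of 0.0572% in KO and 0.0813% in WT, with highest values of 3.51% in KO and 3.67% in WT. No phagocyte or endothelial marker of the 20 in each list was at 0 in either sum. Fibro-adipogenic markers had a median of 0.102% in KO and 0.112% in WT, and tenocyte and muscle fibre markers a median of 0 in both. Myogenic markers summed to 696 CPM (UMIs of a gene per 1000000 UMIs of the members' sum) in KO and 738 CPM in WT. Mymk was at 0 in both, and Myf5 and Cdh15 at 0 in WT. That list shares Des and Heyl with mural lists. The rule itself capped Cdh5, Csf1r, Pdgfra and Cdh15, which are in the endothelial, phagocyte, fibro-adipogenic and myogenic lists. Low values of these genes follow from the choice of members and are no check of the label. Schwann cell markers summed to 292 CPM in KO and 250 CPM in WT, with highest values of 0.154% in KO and 0.131% in WT. Of the 14 markers of that list 7 were at 0 in KO and 6 in WT. Sox10, which defines Schwann cells, had no UMI in any member. In all, 15 KO and 14 WT members gave 1% or more of their UMIs to 1 of these lists, and they are called mixed members here. One WT member gave 64.2% of its UMIs to the erythroid and platelet list. One WT member held 118 of the 118 WT UMIs of Prg4, the lubricin gene of joint and tendon lining cells. No barcodes were removed as doublets in the values below, and list medians are also given without the mixed members.

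Mural members made up 1.97% [1.66 to 2.33] of KO and 1.29% [1.04 to 1.59] of WT barcodes, a ratio of 1.53 [1.16 to 2.02]. That ratio depended on the limits. With a minimum of 2000 UMIs in place of 5000 it was 1.03. With the marker sum alone, 249 KO and 222 WT barcodes passed, a ratio of 1.11 [0.923 to 1.34]. Without mixed members it was 1.61. The mural share was thus higher in KO under the full rule at 5000 or more UMIs, but not detectably so by the marker sum alone. It was about equal once barcodes of 2000 to 4999 UMIs were added, of which 95 KO and 75 WT passed the marker rule. Barcodes with 2000 or more UMIs, before the mitochondrial limit, numbered 11047 in KO and 8160 in WT. The share therefore also moved with the number of barcodes it was divided by. Fewer cells of a type and less RNA per cell cannot be told apart in such shares.

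Genes outside the rule set the members apart from other barcodes of both libraries, as a description of cells that were chosen on related genes. The other barcodes were limited to those with at most 2 UMIs over the rule's genes. This limit left out further barcodes with mural signal, so the other barcodes' values for mural genes are low in part by choice. Ranked by the lower of the ratios in KO and WT, each on CPM plus 5, the first was Gucy1a1, a subunit of the nitric oxide receptor guanylate cyclase, at 538 CPM in KO and 596 CPM in WT members. Other barcodes had 0.949 CPM in KO and 2.42 CPM in WT. Higd1b and Cox4i2, which encode mitochondrial proteins enriched in pericytes, followed with Mylk, the myosin light chain kinase. The odorant receptor gene Olfr558 had 240.2 CPM in KO and 259 CPM in WT members, against 0.0949 CPM in other KO and 0.0553 CPM in other WT barcodes. Lmod1, Pln, Myl9, Ppp1r14a, Cnn1 and Mustn1 of the contractile programme were also among the 15 genes with the highest such ratio, and so were Gucy1b1, Sncg, Ndufa4l2 and Nrip2.

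The rule's own genes had KO over WT ratios between 0.872 and 1.22. Rgs5 had 7293 CPM [7165 to 7423] in KO members and 5958 CPM [5804 to 6116] in WT members (ratio 1.22 [1.19 to 1.26]), and the UMIs were spread over 125 KO and 79 WT members. Kcnj8 had 275 CPM in KO and 281 CPM in WT members (ratio 0.980 [0.841 to 1.14]) and Abcc9 241 CPM in KO and 214 CPM in WT members (ratio 1.13 [0.949 to 1.34]). Both depended on the depth limit: the log2 ratio of Kcnj8 was -0.65 with a minimum of 2000 UMIs and 0.48 with 10000, and that of Abcc9 was -0.37 with 2000 and 0.20 with 10000. Notch3 had 413 CPM in KO and 377 CPM in WT members (ratio 1.09 [0.963 to 1.25]), and Myh11 1183 CPM in KO and 1356 CPM in WT members (ratio 0.872 [0.813 to 0.936]). Pdgfrb, which the rule did not use, had 419 CPM in KO and 418 CPM in WT members (ratio 1.00 [0.885 to 1.14]), and Cspg4, the NG2 proteoglycan of pericytes, 168 CPM in KO and 173 CPM in WT members. Levels overlapped between the libraries for each of these genes, since members of both ranged from no UMI to values far above either median.

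Shares of members with a UMI were compared after thinning each barcode to 2000 UMIs. Kcnj8 was then seen in 38.8% [30.5 to 47.6] of KO and 26.4% [17.6 to 37.0] of WT members, and unthinned in 62.7% of KO and 55.2% of WT members. Since its CPM did not differ in that direction, no order is read from these shares. Myh11 was seen in 53.0% [44.2 to 61.7] of KO and 59.8% [48.7 to 70.1] of WT members after thinning, and unthinned in 83.6% of KO and 87.4% of WT members. Phagocytes were gated with at most 2 UMIs over the rule's 5 genes, Kcnj8 and Myh11 among them. Their low shares for both genes are thus in part set by the gate and are no independent background. The thinned share for Kcnj8 was 0 of 4008 KO phagocytes, which allows up to 0.0749% (3 counts of the total), and 0.0592% of 3376 WT phagocytes. For Myh11 it was 0.175% in KO and 0.0592% in WT phagocytes. Their median depths were 11546 UMIs in KO and 11904 in WT.

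Members were placed on a pericyte side when UMIs of Kcnj8, Abcc9, Higd1b and Ndufa4l2 together exceeded those of Myh11, Lmod1, Cnn1 and Actg2, and on a smooth muscle side when the reverse held. The pericyte side held 89 KO members (66.4% [57.8 to 74.3]) and 49 WT members (56.3% [45.3 to 66.9]). The smooth muscle side held 42 KO members (31.3% [23.6 to 39.9]) and 36 WT members (41.4% [30.9 to 52.4]), and 3 KO and 2 WT members were tied. The ratio of the pericyte side shares was 1.18 [0.823 to 1.71], so a difference was not detectable with this number of members. These are ranges along a continuum and not types: 12 KO and 5 WT members lay within 2 UMIs of the dividing line, and 78 KO and 50 WT members held 5 or more UMIs of both sums.

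**Figure D1:**
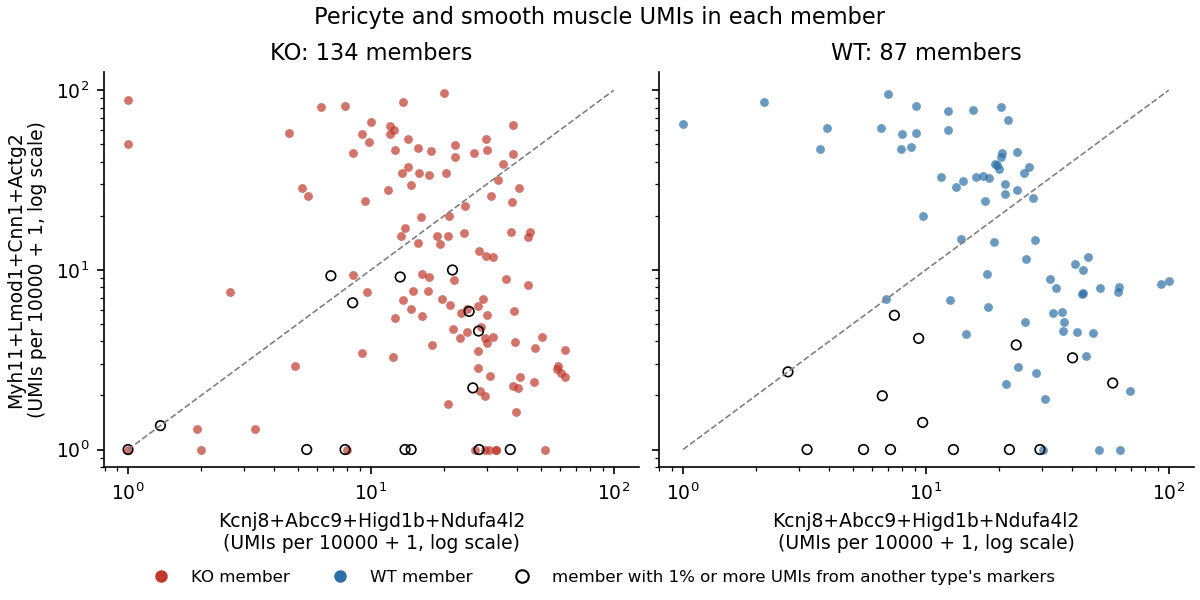
Each point is 1 mural member, KO on the left and WT on the right, with UMIs of the 4 pericyte genes on the horizontal and of the 4 smooth muscle genes on the vertical axis, per 10000 UMIs plus 1 on log scales. Both libraries spread across the dashed line of equal values, and of the open circles, the 15 KO and 14 WT mixed members, 12 KO and 13 WT lie on the pericyte side of it.

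Genes not used for the sides followed them in both libraries. Mgp, which encodes matrix Gla protein, an inhibitor of vessel calcification, had 1478 CPM on the KO and 2648 CPM on the WT pericyte side, against 58.2 CPM on the KO and 66.2 CPM on the WT smooth muscle side. Col15a1, a basement membrane collagen, had 262 CPM on the KO and 342 CPM on the WT pericyte side, and 7.51 CPM on the KO smooth muscle side with no UMI on the WT one. Cell cycle genes lay on the pericyte side too, with Mki67 at 226 CPM in KO and 172 CPM in WT, against 11.3 CPM in KO and 15.9 CPM in WT on the smooth muscle side. Acta2 ran the other way, at 15835 CPM in KO and 18324 CPM in WT on the smooth muscle side and 4246 CPM in KO and 4892 CPM in WT on the pericyte side. The pericyte side includes 12 KO and 13 WT mixed members. Phagocyte markers were lower in KO there in 18 of 18 measured cases (median log2 ratio -1.09) and higher in KO on the smooth muscle side in 14 of 14 (median 1.33), and their part in the results by side was not tested.

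Setdb1 itself (GRCm38, chromosome 3, 95323525 to 95357202, minus strand) was too sparse in mural cells to compare. It had 17 UMIs in KO and 12 in WT members, in 15 KO and 12 WT members, or 10.1 CPM [5.87 to 16.1] in KO members and 12.6 CPM [6.52 to 22.04] in WT members (ratio 0.799 [0.360 to 1.83]). That interval includes both a loss of more than 2-fold and a gain. Myogenic cells, gated on Cdh15, Pax7, Myf5, Myod1 and Myog, had 7.13 CPM in KO and 17.2 CPM in WT (ratio 0.415 [0.285 to 0.592]), while endothelial cells had 13.2 CPM in KO and 11.3 CPM in WT (ratio 1.17 [0.852 to 1.61]). A 3' library checks a deletion only where reads fall in the deleted part, which is not given. Resf1 and Atf7ip, whose proteins bind and stabilise SETDB1, had ratios of 5.07 and 3.22 in myogenic cells. Both are among the genes that earlier results of these libraries had put higher in KO myogenic cells. Their myogenic ratios are thus high in part by choice. In mural cells Resf1 had 90.1 CPM in KO and 73.6 CPM in WT members (ratio 1.22 [0.917 to 1.65]) and Atf7ip 45.1 CPM in KO and 49.4 CPM in WT members (ratio 0.912 [0.626 to 1.34]). Their mural intervals exclude the myogenic ratios, but because of that choice no difference between the cell types is read from this. Trim28, the corepressor that recruits SETDB1, had 58.7 CPM in KO and 43.1 CPM in WT members (ratio 1.36 [0.937 to 2.01]). Of 31 measured genes of a heterochromatin list, 18 were higher and 13 lower in KO, with a median log2 ratio of 0.04.

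One gene separated the libraries in every cell type compared. AC160336.1, an intergenic noncoding transcript annotated on the minus strand of chromosome 14 (44544055 to 44637201, GRCm38; ENSMUSG00000115801), had 4.15 CPM [1.67 to 8.55] in KO members and 132 CPM [110.4 to 158] in WT members (ratio 0.0313 [0.0123 to 0.0665]). It was seen in 6 KO and 41 WT members. Endothelial cells had 1.51 CPM in KO and 216 CPM in WT, and phagocytes 3.98 CPM in KO and 386 CPM in WT, so the difference was not particular to mural cells.

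**Figure D2:**
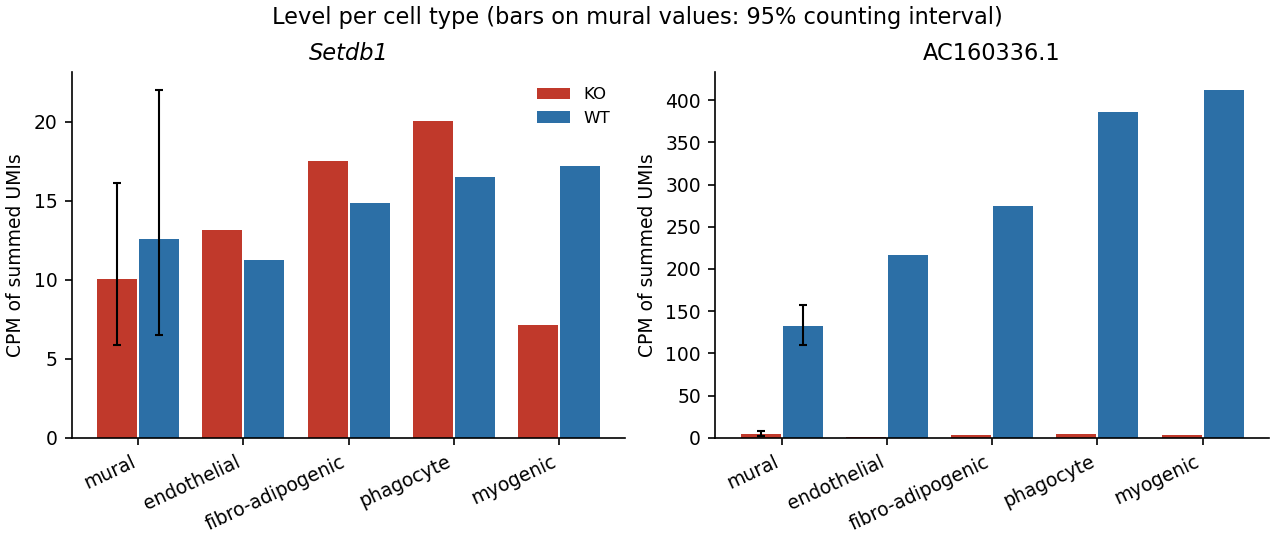
Bars give CPM of summed UMIs per cell type, KO left of WT, for Setdb1 and for AC160336.1, with 95% counting intervals on the mural values. Setdb1 intervals of mural cells overlap while myogenic cells stand at 7.13 CPM in KO and 17.2 CPM in WT, and AC160336.1 is below 5 CPM in KO in all 5 cell types.

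The comparison took in 3410 genes, those that reached 50 CPM in KO or WT members and 20 UMIs in both sums together. A gene was counted as past 2-fold when the log2 ratio of CPM plus 5 was at least 1 or at most -1. In this way 29 genes (0.85%) were higher and 39 (1.14%) lower in KO. Within the pericyte side 70 of 3562 genes (1.97%) were higher and 76 (2.13%) lower, and within the smooth muscle side 117 of 3358 (3.48%) were higher and 61 (1.82%) lower, from fewer UMIs. Without the mixed members 58 genes were higher and 26 lower. Without the highest member of each gene, taken out in KO and WT alike, 41 were higher and 8 lower. With fewer WT members this can remove a larger part of the WT sum, for Rgs5 6.19% in WT and 3.73% in KO. Such a removal raises the KO over WT ratio, so these counts do not by themselves show that the lower genes rested on 1 member each. Over all 9383 genes with 20 UMIs, 5422 were higher and 3961 lower in KO and the median log2 ratio was 0.06, which is the value to set beside each list below.

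**Figure D3:**
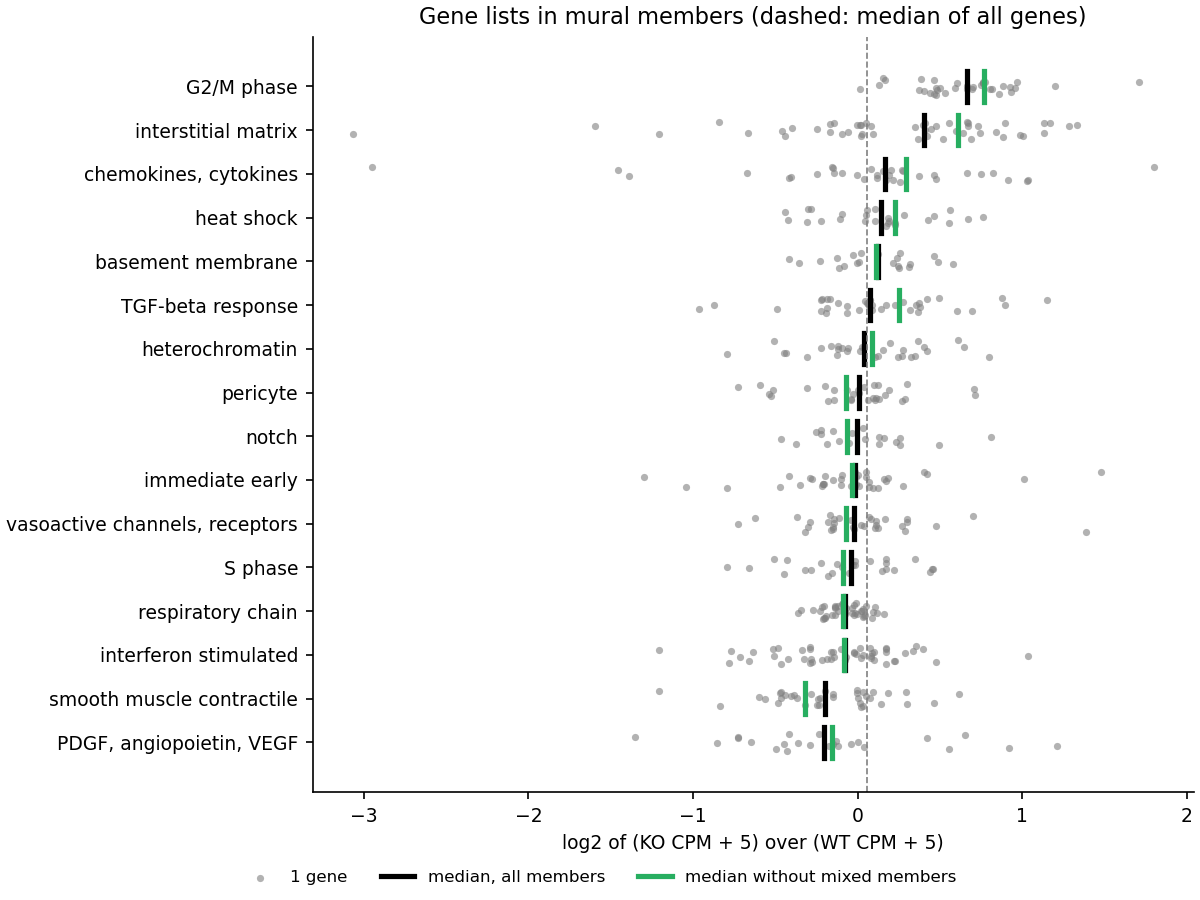
Each point is the log2 ratio of CPM plus 5, KO over WT, of 1 gene with 20 or more UMIs; bars are list medians with all members (black) and without mixed members (green), and the dashed line is the median over all genes. The G2/M list lies at 0.67 and the interstitial matrix list at 0.41, while the pericyte list lies at 0.01 and the contractile list at -0.20.

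Contractile genes were lower in the KO sum. Of 37 measured genes of the list, 14 were higher and 23 lower, with a median log2 ratio of -0.20; without mixed members 6 were higher and 31 lower, at -0.32. Acta2 had 7784 CPM [7652 to 7919] in KO members and 10183 CPM [9981 to 10388] in WT members (ratio 0.764 [0.745 to 0.785]). Single members had a median of 4519 CPM and a highest value of 44031 CPM in KO, against a median of 7928 CPM and a highest value of 43913 CPM in WT, and the ranges overlapped throughout. Tagln had 4855 CPM in KO and 6715 CPM in WT members (ratio 0.723 [0.700 to 0.747]). Myl9 had 2856 CPM in KO and 3394 CPM in WT members (ratio 0.842 [0.805 to 0.880]), and Tpm1, a tropomyosin, 3082 CPM in KO and 3744 CPM in WT members (ratio 0.823 [0.789 to 0.859]). Mustn1, a small nuclear protein of muscle, had 1239 CPM in KO and 1881 CPM in WT members (ratio 0.659 [0.618 to 0.702]), and Ppp1r14a, the inhibitor of myosin phosphatase, 382 CPM in KO and 537 CPM in WT members (ratio 0.712 [0.633 to 0.801]).

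The smaller smooth muscle side of the KO library moves with that sum, so the sides were also read apart. The list summed to 68116 CPM in KO and 75712 CPM in WT on the smooth muscle side, and to 21296 CPM in KO and 20434 CPM in WT on the pericyte side. On the smooth muscle side the list median was -0.03, with 16 genes higher and 21 lower, and on the pericyte side it was 0.24, with 23 higher and 11 lower. Myh11, Lmod1, Cnn1 and Actg2 set the sides, so their ratios within a side are not read. They are also counted in the list sums, medians and counts by side given here. Those values therefore depend in part on the split itself, and no direction within a side is read from them. Of genes that did not set them, Acta2 had a KO over WT ratio of 0.864 on the smooth muscle side, Tagln 0.794, Mustn1 0.743 and Ppp1r14a 0.642. Across every alternative setting the log2 ratio of Acta2 ran from -0.57 to -0.29, that of Tagln from -0.71 to -0.37 and that of Mustn1 from -0.85 to -0.49.

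Actg2, the gamma smooth muscle actin of visceral and some vascular smooth muscle, had the lowest ratio of the list at 144 CPM in KO and 339 CPM in WT members (ratio 0.426 [0.359 to 0.504]). It was confined to few members, 30 in KO and 16 in WT, and 1 WT member held 90 of the 322 WT UMIs. With the highest Scrublet doublet scores removed its log2 ratio was 0.42 in place of -1.20, so its direction rests on a handful of WT members.

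Strict CArG boxes, with 6 bases of A or T between CC and GG (palindromic, so both strands are covered by 1 search), were looked for in the 250 bases before each gene's start in RefSeq's GRCm38.p6 promoters. Of 38 contractile genes 29 had an entry, and 2 of these (6.90%) held a box, Myl9 and Srf. None of 23 pericyte-list genes held one, and 378 of 27025 gene symbols (1.40%) did. Both promoters are shown with the boxes in capitals, since Myl9 is among the most abundant contractile genes of these members and Srf encodes the factor that binds the box. The Myl9 window is chr2:156775214-156775463 on the plus strand, with the box starting 161 bases before the gene's start, and the Srf window chr17:46556163-46556412 on the minus strand, with 2 boxes that do not overlap, starting 82 and 62 bases before it. A match of letters is a description and no measurement of binding.
Myl9: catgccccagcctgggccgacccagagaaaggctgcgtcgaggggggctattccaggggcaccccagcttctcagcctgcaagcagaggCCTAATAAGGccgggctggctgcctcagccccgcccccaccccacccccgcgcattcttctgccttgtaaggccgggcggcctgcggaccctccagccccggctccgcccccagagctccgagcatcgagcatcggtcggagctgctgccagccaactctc
Srf: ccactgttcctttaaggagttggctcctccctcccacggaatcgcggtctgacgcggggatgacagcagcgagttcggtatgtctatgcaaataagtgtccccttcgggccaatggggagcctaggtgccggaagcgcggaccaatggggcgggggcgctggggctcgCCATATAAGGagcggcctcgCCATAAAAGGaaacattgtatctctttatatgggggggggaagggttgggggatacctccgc

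Genes of pericyte identity showed no common direction over all members. Of 31 measured genes of that list, 17 were higher and 14 lower in KO, with a median log2 ratio of 0.01. Without mixed members 10 were higher and 21 lower, at -0.07. On the pericyte side 19 were higher and 12 lower (median 0.12), and on the smooth muscle side 8 were higher and 20 lower (median -0.21). Kcnj8, Abcc9, Higd1b and Ndufa4l2 are counted there although they set the sides, so those values depend in part on the split. None of the 27 abundant enough for the 2-fold count was past it, where 0.85% of all genes were higher and 1.14% lower. Within the pericyte list a few genes were lower in both sides. Ednrb, the endothelin receptor type B (ENSMUSG00000022122; GRCm38, chromosome 14, 103814625 to 103844402, minus strand), had 247 CPM [224 to 272] in KO members and 413 CPM [373 to 456] in WT members (ratio 0.598 [0.520 to 0.689]). It was at 328 CPM in KO and 519 CPM in WT on the pericyte side (ratio 0.631 [0.540 to 0.740]) and at 97.6 CPM in KO and 270.0 CPM in WT on the smooth muscle side (ratio 0.362 [0.254 to 0.510]). Single members ranged from 0 to 3079 CPM in KO and from 0 to 3501 CPM in WT, with medians of 120.0 CPM in KO and 117 CPM in WT, so the difference lay in the upper part of the range. Ednra, the other endothelin receptor, had 174 CPM in KO and 169 CPM in WT members (ratio 1.03 [0.844 to 1.25]).

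Vtn, which encodes vitronectin, had 304 CPM in KO and 461 CPM in WT members (ratio 0.661 [0.580 to 0.752]). Cox4i2, a cytochrome oxidase subunit of oxygen-sensing cells, had 329 CPM in KO and 479 CPM in WT members (ratio 0.685 [0.604 to 0.777]), with medians over single members of 313 CPM in KO and 449.9 CPM in WT. It stood at 0.702 on the pericyte side and 0.637 on the smooth muscle side as a KO over WT ratio. Art3, an ADP-ribosyltransferase family gene, had 158 CPM in KO and 228 CPM in WT members (ratio 0.694 [0.578 to 0.834]), lower on the pericyte side (ratio 0.610) and at a ratio of 1.00 on the smooth muscle side. Over the alternative settings the log2 ratios ran from -1.02 to -0.54 for Ednrb, from -0.92 to -0.44 for Vtn and from -0.67 to -0.42 for Cox4i2.

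A further gene, which is not in the pericyte list, was chosen after its values were seen. Rasl11a, a small GTPase of the Ras family, had 308 CPM in KO and 667 CPM in WT members (ratio 0.462 [0.410 to 0.519]), was enriched in mural members over other barcodes, and was lower on both sides, at ratios of 0.630 and 0.478 on the pericyte and smooth muscle sides. Its log2 ratio ran from -1.42 to -0.80 over the settings. The 5 highest WT members held 338 of 634 WT UMIs, with 124 in 1 member, and the 5 highest KO members 178 of 519. The ratio over all members lay below that of either side, and the part of the mix of sides in it was not tested. Endothelial cells had 23.8 CPM in KO and 22.1 CPM in WT for Rasl11a and fibro-adipogenic cells 18.2 CPM in KO and 8.86 CPM in WT (ratio 2.06 [1.57 to 2.71]).

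Of the 10 genes furthest above WT, the one seen in the most members was Serpine2, which encodes protease nexin-1, an inhibitor of thrombin and plasminogen activators (ENSMUSG00000026249; GRCm38, chromosome 1, 79794197 to 79861180, minus strand). It had 1375 CPM [1319.7 to 1432] in KO members and 649 CPM [599 to 702] in WT members (ratio 2.12 [1.94 to 2.32]), in 129 of 134 KO and 78 of 87 WT members. Single members had a median of 1108 CPM and a highest value of 11150.1 CPM in KO, and a median of 464 CPM and a highest value of 6134 CPM in WT. It was higher on the pericyte side (1681 CPM in KO and 675 CPM in WT, ratio 2.49 [2.23 to 2.79]) and on the smooth muscle side (869 CPM in KO and 625 CPM in WT, ratio 1.39 [1.19 to 1.63]), and without mixed members (ratio 1.97 [1.79 to 2.17]). Its log2 ratio ran from 0.86 to 1.16 over every setting. In fibro-adipogenic cells it was lower in KO, at 122 CPM in KO and 259 CPM in WT (ratio 0.471 [0.439 to 0.505]), and phagocytes had only 20.7 CPM in KO and 14.1 CPM in WT.

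**Figure D4:**
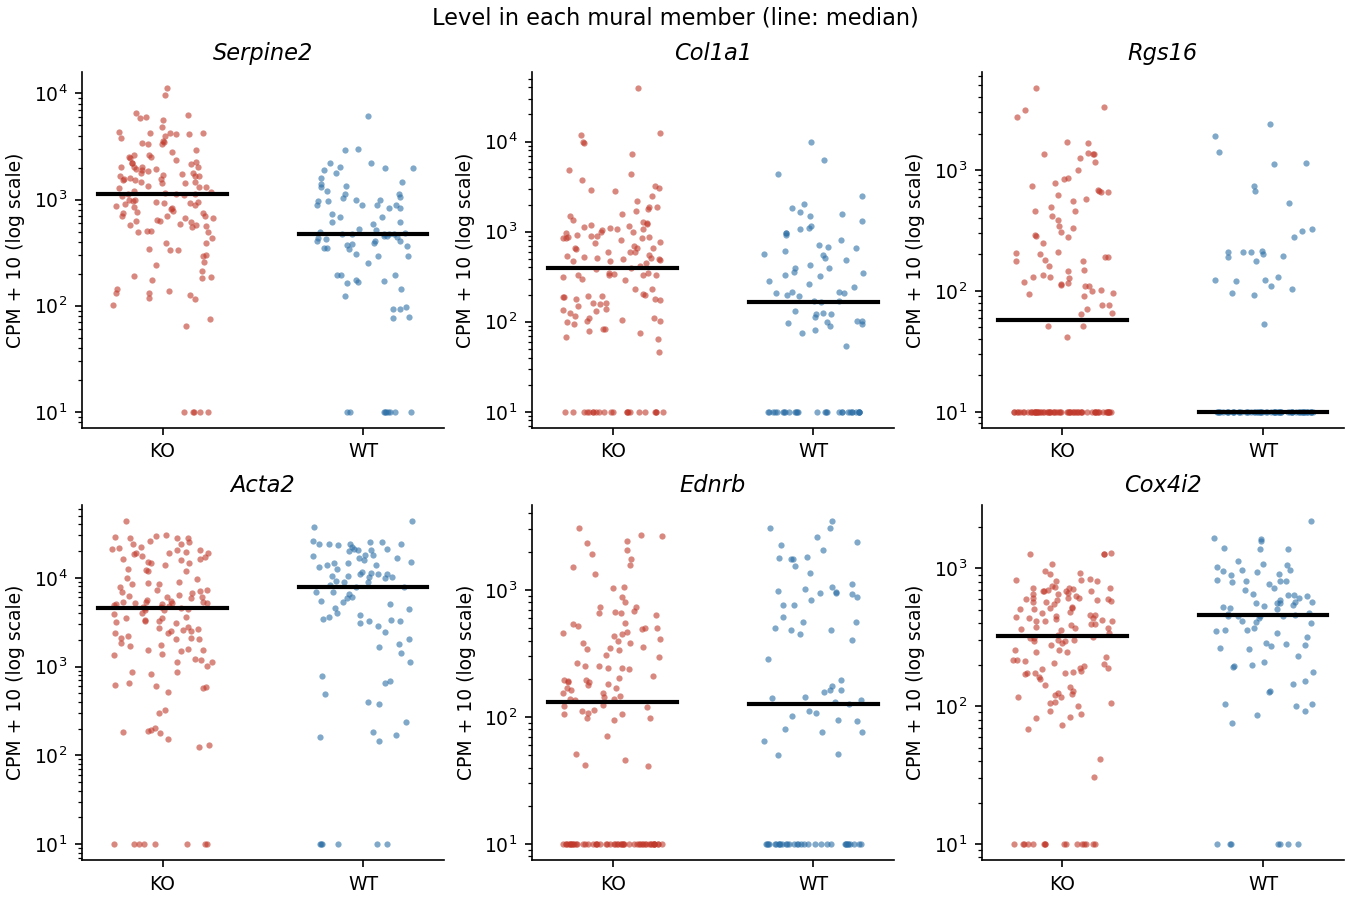
CPM plus 10 on a log scale in each mural member, KO left of WT, for 6 named genes; lines are medians over members. Serpine2 medians are 1108 CPM in KO and 464 CPM in WT, Acta2 medians 4519 CPM in KO and 7928 CPM in WT, and the members of both libraries overlap for every gene shown.

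Of 33 measured genes for vasoactive receptors, channels and their regulators, 16 were higher and 17 lower in KO (median log2 ratio -0.02). Over all genes 0.85% were higher and 1.14% lower past 2-fold. Of the 20 genes of this list abundant enough for that count, 1 was past it, in the higher direction. That gene was Adra2a, the alpha-2A adrenergic receptor (GRCm38, chromosome 19, 54044151 to 54048982, plus strand), at 96.1 CPM [81.8 to 112] in KO members and 33.6 CPM [23.01 to 47.5] in WT members (ratio 2.86 [1.94 to 4.31]). It was seen in 46 KO and 19 WT members, and after thinning in 12.7% [7.57 to 19.5] of KO and 4.60% [1.27 to 11.4] of WT members, and unthinned in 34.3% of KO and 21.8% of WT members. In phagocytes the thinned share was 0 of 4008 KO cells, which allows up to 0.0749% by the same 3 counts, and 0.0296% of WT cells. The pericyte side had 113 CPM in KO and 26.8 CPM in WT (ratio 4.23 [2.47 to 7.78]) and the smooth muscle side 69.5 CPM in KO and 45.0 CPM in WT (ratio 1.54 [0.848 to 2.92]). Rgs16, a regulator that ends G protein signalling, had 308 CPM in KO and 187 CPM in WT members (ratio 1.64 [1.38 to 1.96]), and was higher on both sides, at ratios of 1.77 on the pericyte side and 1.50 on the smooth muscle side. Its log2 ratio ran from 0.49 to 2.27 over the settings, with the upper end after the highest doublet scores were removed.

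**Figure D5:**
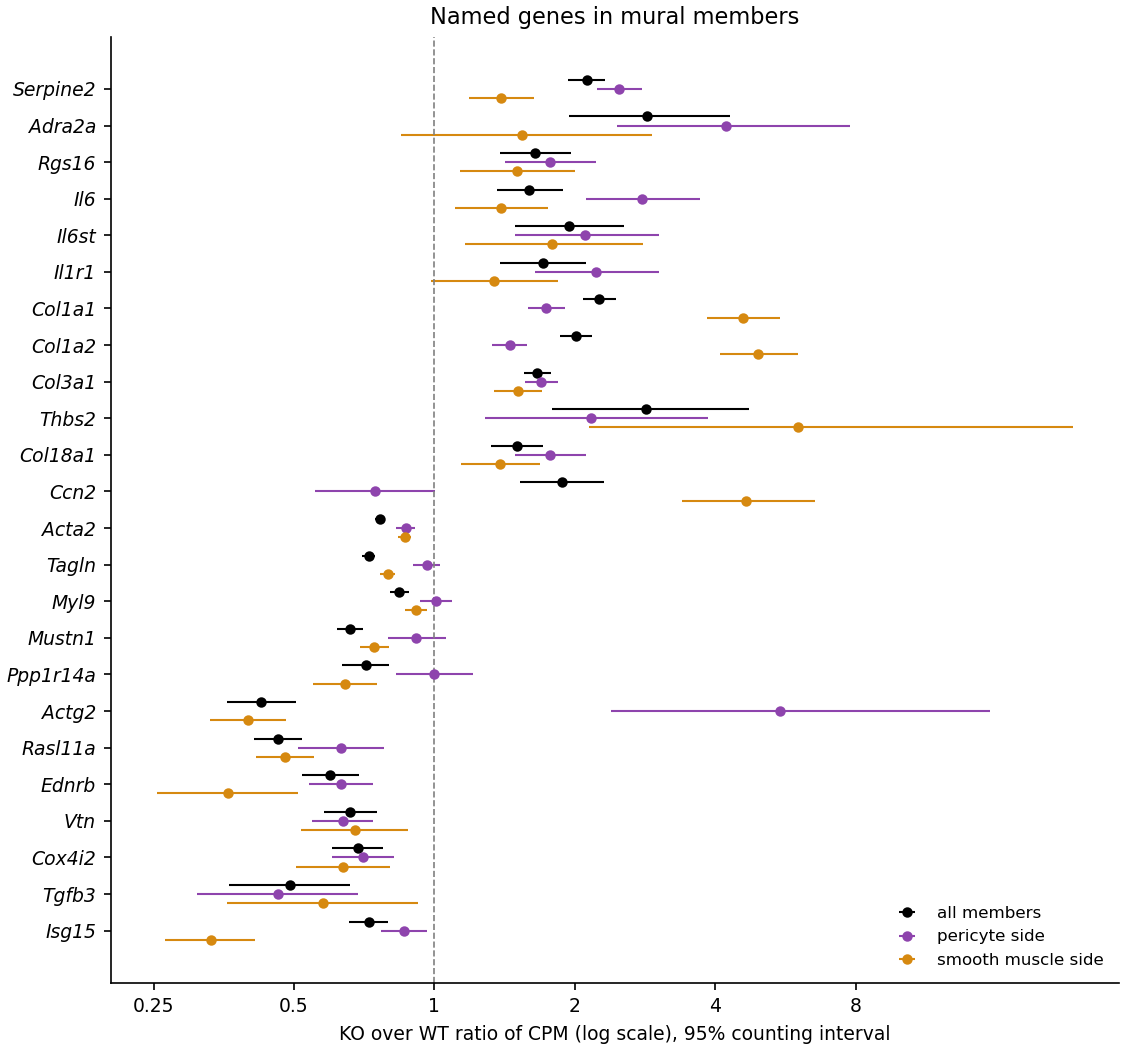
KO over WT ratio of CPM on a log scale with 95% counting intervals for 24 named genes, over all members (black), the pericyte side (purple) and the smooth muscle side (orange). Serpine2, Rgs16 and Il6st lie above 1 and Rasl11a, Ednrb, Vtn, Cox4i2 and Tgfb3 below 1 on both sides, while Actg2, whose UMIs helped to set the sides, lies above 1 on the pericyte side and below 1 on the smooth muscle side.

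The Notch list and the platelet-derived growth factor, angiopoietin and VEGF list gave small medians. In the Notch list 10 of 20 measured genes were higher and 10 lower (median log2 ratio 0.00). Hes1, a transcriptional target of Notch, had 586 CPM in KO and 498 CPM in WT members (ratio 1.18 [1.05 to 1.31]), Heyl, another target, 97.8 CPM in KO and 128 CPM in WT members (ratio 0.763 [0.600 to 0.972]), and Nrip2 146 CPM in KO and 204 CPM in WT members (ratio 0.718 [0.593 to 0.871]). In the growth factor list 7 of 24 were higher and 17 lower (median -0.20). Pdgfa, a ligand, had 404 CPM in KO and 476 CPM in WT members (ratio 0.848 [0.752 to 0.957]). Cxcl12, a chemokine that perivascular cells make, had 295 CPM in KO and 396 CPM in WT members (ratio 0.745 [0.650 to 0.854]). Angpt1, the ligand by which mural cells act on endothelial Tek, rested on 48 UMIs in KO and 9 in WT, in 25 KO and 5 WT members. That gave a ratio 3.01 [1.46 to 6.97]. Kdr, an endothelial receptor, had 6 UMIs in KO and 16 in WT. It is itself in the endothelial marker list, of which 15 of 15 measured genes, Kdr among them, were lower in KO (summed level 1336 CPM in KO and 2413 CPM in WT). The part of that in any result here was not tested.

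Interstitial matrix genes were higher in KO as a list. Of 50 measured genes 35 were higher and 15 lower, at a median log2 ratio of 0.41. Of the 44 abundant enough for the 2-fold count, 6 were higher and 3 lower, where 0.85% and 1.14% of all genes were. The list stood at 43 higher and 7 lower without mixed members, at a median of 0.61. On the smooth muscle side 37 of 44 were higher (median 0.72) and on the pericyte side 34 of 50 (median 0.34). Col1a1, a chain of the fibrillar type I collagen, had 1762 CPM [1699 to 1826] in KO members and 780.2 CPM [725 to 838] in WT members (ratio 2.26 [2.08 to 2.45]), and Col1a2, its partner, 1715 CPM in KO and 853 CPM in WT members (ratio 2.01 [1.86 to 2.18]). Col3a1, type III collagen, had 2078 CPM in KO and 1249 CPM in WT members (ratio 1.66 [1.56 to 1.78]), and Igfbp7, the most abundant gene of the list, 5389 CPM in KO and 5314 CPM in WT members (ratio 1.01 [0.980 to 1.05]).

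A few members carried much of the collagen. The 5 highest KO members held 1845 of 2971 Col1a1 UMIs, and the 5 highest WT members 476 of 742. The KO member with the largest share gave 6.63% of its UMIs to Col1a1 and Col1a2, with no Pdgfra UMI and a mural marker sum of 8, the lowest the rule admits. The next 3 had marker sums of 11, 14 and 15, against a median of 89 over KO members. With a marker sum of at least 15, which left 126 KO and 81 WT members, the log2 ratio of Col1a1 was 0.60 in place of 1.17 and the list median 0.24. The matrix list took a median of 2.89% of UMIs in the 8 KO members below a sum of 15 and 1.71% in the other KO members, and 1.38% in the 6 such WT members and 1.23% in the other WT members.

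Phagocytes, which should lack type I collagen, also held Col1a1 UMIs, and more in KO. Single mural members had a median of 381 CPM in KO and 153 CPM in WT, and the summed UMIs of phagocytes gave 646 CPM in KO and 173 CPM in WT (ratio 3.74 [3.64 to 3.83]). After thinning to 2000 UMIs, 53.7% [44.9 to 62.4] of KO and 39.1% [28.8 to 50.1] of WT members had a Col1a1 UMI, against 21.8% of KO and 7.35% of WT phagocytes; unthinned these were 83.6% of KO and 66.7% of WT members, and 61.0% of KO and 32.3% of WT phagocytes. The fibro-adipogenic marker list summed to 1591 CPM in KO and 1904 CPM in WT members, with Mme at 0 in KO and Pi16 and Hsd11b1 at 0 in WT. Their part in the collagen difference was not tested. Thbs2, a matricellular protein chosen after its values were seen, had 65.8 CPM in KO and 23.1 CPM in WT members (ratio 2.85 [1.79 to 4.72]), and fibro-adipogenic cells 618 CPM in KO and 240.1 CPM in WT.

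Basement membrane genes differed less: of 21 measured, 13 were higher and 8 lower in KO, with a median log2 ratio of 0.12. None of the 18 abundant enough for the 2-fold count was past it, where 0.85% of all genes were higher and 1.14% lower. Sparc, a collagen-binding protein, had 7186 CPM in KO and 5125 CPM in WT members (ratio 1.40 [1.36 to 1.45]), and all 134 KO and 87 WT members held it. Col18a1, the precursor of endostatin, had 537 CPM in KO and 357 CPM in WT members (ratio 1.50 [1.32 to 1.71]), at ratios of 1.77 on the pericyte and 1.38 on the smooth muscle side. In endothelial cells Col18a1 had a ratio of 1.80 too. Col4a1, the main network collagen, had 1552 CPM in KO and 1337 CPM in WT members (ratio 1.16 [1.09 to 1.24]), and the laminin and collagen receptor subunit Itga1 351 CPM in KO and 470.0 CPM in WT members (ratio 0.747 [0.659 to 0.846]).

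A list of ligands, receptors, signal transducers, antagonists and target genes of TGF-beta and BMP gave a median log2 ratio of 0.08. Of its 38 measured genes 25 were higher and 13 lower. The list mixes parts of the pathway with its targets, so its median is no readout of the response to these signals. Ccn1, a secreted matricellular protein, had 343 CPM in KO and 182 CPM in WT members (ratio 1.88 [1.59 to 2.25]), and Ccn2 244 CPM in KO and 130.4 CPM in WT members (ratio 1.87 [1.53 to 2.31]). The difference was larger on the smooth muscle side, where Ccn1 had 518 CPM in KO and 148 CPM in WT (ratio 3.50 [2.61 to 4.75]) and Ccn2 556 CPM in KO and 119 CPM in WT (ratio 4.66 [3.40 to 6.53]), while on the pericyte side Ccn1 had a ratio of 1.28 and Ccn2 105 CPM in KO and 141 CPM in WT (ratio 0.745 [0.555 to 1.00]). One KO member held 140 of 412 Ccn2 UMIs, and with a marker sum of at least 15 the log2 ratio of Ccn2 was 0.29 in place of 0.88. Id1, a target of BMP signalling chosen after its values were seen, had 253 CPM in KO and 155 CPM in WT members (ratio 1.64 [1.36 to 1.99]). Tgfb3, a ligand, was lower at 51.0 CPM in KO and 104 CPM in WT members (ratio 0.490 [0.363 to 0.661]), and this held on the pericyte side (0.462) and the smooth muscle side (0.577). Fst, the activin antagonist follistatin, had 94.9 CPM in KO and 40.0 CPM in WT members (ratio 2.37 [1.66 to 3.48]), with 53 of 160 KO UMIs in 1 member. With every member weighted alike its log2 ratio was 0.47 in place of 1.15.

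Of 34 measured chemokine and cytokine genes 22 were higher and 12 lower in KO, at a median log2 ratio of 0.17, and at 0.29 without mixed members. Ccl7, a chemokine for monocytes, had 181 CPM [161 to 202] in KO members and 48.4 CPM [35.4 to 64.5] in WT members (ratio 3.74 [2.74 to 5.22]), from 38 KO and 15 WT members, and 1 KO member held 92 of 305 UMIs. Cxcl1, the most abundant gene of the list, had 1172 CPM in KO and 1027 CPM in WT members (ratio 1.14 [1.06 to 1.23]). Cxcl2 was lower at 145 CPM in KO and 405 CPM in WT members (ratio 0.357 [0.303 to 0.421]), yet it was seen in 57 KO and only 18 WT members, and 1 WT member held 146 of 385 UMIs. With the highest doublet scores removed its log2 ratio was 0.57.

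The next 4 genes, of interleukin signalling and adhesion, were chosen from this list after their values were seen. Il6 had 338 CPM in KO and 211 CPM in WT members (ratio 1.60 [1.36 to 1.89]), and the shared receptor chain Il6st 149 CPM in KO and 76.8 CPM in WT members (ratio 1.94 [1.49 to 2.55]). Il1r1, the interleukin-1 receptor, had 213 CPM in KO and 125 CPM in WT members (ratio 1.71 [1.38 to 2.12]), and the adhesion molecule Icam1 54.6 CPM in KO and 24.2 CPM in WT members (ratio 2.26 [1.42 to 3.73]). On the pericyte side Il6 had 309 CPM in KO and 111 CPM in WT (ratio 2.78 [2.12 to 3.71]) and on the smooth muscle side 429.9 CPM in KO and 309.7 CPM in WT (ratio 1.39 [1.11 to 1.75]). Fibro-adipogenic cells ran the other way for Il6, at 39.2 CPM in KO and 91.7 CPM in WT (ratio 0.427 [0.378 to 0.482]), and endothelial cells had 111 CPM in KO and 52.8 CPM in WT for Il1r1 (ratio 2.10 [1.85 to 2.39]).

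The stress and interferon lists differed little as groups. Of 26 heat shock genes 18 were higher and 8 lower (median log2 ratio 0.14). The chaperone gene Hspa1a had 1666 CPM in KO and 1371 CPM in WT members (ratio 1.21 [1.14 to 1.30]), and Dnajb1, its cochaperone, 348 CPM in KO and 203 CPM in WT members (ratio 1.72 [1.46 to 2.03]). Of 38 immediate early genes 16 were higher and 22 lower (median -0.02), with Fos at 2211 CPM in KO and 2367 CPM in WT members and Jun at 2172 CPM in KO and 1988 CPM in WT members, levels that dissociation of tissue is known to raise. Of 51 interferon-stimulated genes 21 were higher and 30 lower (median -0.07). Isg15 had 566 CPM in KO and 783 CPM in WT members (ratio 0.723 [0.656 to 0.797]) and Ifit1 67.6 CPM in KO and 119 CPM in WT members (ratio 0.569 [0.435 to 0.745]); Isg15 was lower in KO in endothelial cells (0.492), fibro-adipogenic cells (0.395) and phagocytes (0.470) too. Of 21 genes of MHC class I presentation 8 were higher and 13 lower (median -0.04).

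Genes of the G2 and M phases of the cell cycle were higher in the KO sum in 36 of 36 measured cases, at a median log2 ratio of 0.67, while S phase genes had a median of -0.04 with 10 of 26 higher. Cenpf, a kinetochore protein, had 187 CPM [167 to 209] in KO members and 53.6 CPM [39.9 to 70.5] in WT members (ratio 3.48 [2.58 to 4.78]), and Ube2c, of the ubiquitin pathway of mitosis, 222 CPM in KO and 93.6 CPM in WT members (ratio 2.37 [1.88 to 3.02]). Top2a, topoisomerase II, had 239 CPM in KO and 123 CPM in WT members (ratio 1.94 [1.58 to 2.41]). On the pericyte side 34 of 36 G2/M genes were higher, and without mixed members 35 of 36. The replication-dependent histone gene H2ac4 had 108 UMIs in KO and 12 in WT (ratio 5.08 [2.79 to 10.1]), a value that is uncertain because near-identical histone copies share reads.

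These UMIs came from few members. G2/M genes took 0.5% or more of UMIs in 17 KO members (12.7% [7.57 to 19.5]) and 10 WT members (11.5% [5.65 to 20.1]), and 16 of the 17 KO and 9 of the 10 WT members were on the pericyte side. At a limit of 1% there were 13 KO (9.70%) and 5 WT members (5.75%), and at 0.3% there were 20 KO and 11 WT. The share of members with G2/M UMIs therefore did not differ detectably, and the higher sum came from the members that carried most of them, in which 1 KO member held 66 of 315 Cenpf UMIs. After thinning, Mki67 was seen in 11.9% [6.98 to 18.7] of KO and 9.20% [4.05 to 17.3] of WT members, against 4.17% of KO and 2.73% of WT phagocytes, and unthinned in 22.4% of KO and 17.2% of WT members.

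Metabolic and imprinted genes completed the lists. Of 40 respiratory chain genes 12 were higher and 28 lower (median -0.07), and of 32 glycolysis and hypoxia genes 17 were higher and 15 lower (median 0.02), with the glycolytic gene Gapdh at 1172 CPM in KO and 1141 CPM in WT members. Of 19 imprinted genes 12 were higher and 7 lower (median 0.18). H19, a maternally expressed noncoding RNA, had 81.8 CPM in KO and 22.1 CPM in WT members (ratio 3.71 [2.33 to 6.18]), in 27 KO and 11 WT members, and its ratio was also above 1 in endothelial cells (2.83), fibro-adipogenic cells (1.51) and phagocytes (1.97). Meg3, likewise maternal, had 824 CPM in KO and 549 CPM in WT members (ratio 1.50 [1.36 to 1.66]). Genes that earlier results of these libraries had put higher or lower in KO myogenic cells had medians of -0.09 (5 of 11 higher) and -0.20 (2 of 8 higher); Cck, of the first list, had 113 CPM in KO and 121 CPM in WT members (ratio 0.937 [0.739 to 1.19]).

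Most of the 10 genes furthest below WT came from 1 WT member each. One WT member held 118 of 118 Prg4 UMIs, and 1 member held 177 of 183 for Abi3bp, 159 of 170 for Cpxm1, 171 of 196 for Thbs4, 42 of 49 for Ly6c2, 76 of 109 for Ccl4 and 60 of 100 for Lum. Without mixed members the ratios of Thbs4 (1.08) and Cpxm1 (1.19) were near 1 and that of Lum was 2.13. Tcap, a titin-binding protein, had 30 UMIs in KO and 65 in WT (ratio 0.260 [0.163 to 0.407]), 23 of them in 1 WT member. Among the 10 genes furthest above WT, Spp1, the osteopontin gene that phagocytes also express, rested on 1 KO member with 361 of 563 UMIs, and its ratio was 0.536 without mixed members.

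Clustering of the 221 members together gave 6 groups at a Leiden resolution of 0.5, and both libraries were in each. A smooth muscle-like group of 28 KO and 27 WT members and another of 8 KO and 4 WT members had contractile genes at medians of 7.24% and 9.84% of UMIs. A group of 30 KO and 25 WT members had them at 1.44%, and pericyte-list genes at 2.16%. It has no name, since 10 of its members were mixed and endothelial genes such as Egfl7 and Emcn were among its leading genes; at a resolution of 1 a pericyte-like group of 23 KO and 19 WT members with no mixed member stood apart, led by Slc16a12 and Col15a1. A group of 26 KO and 11 WT members, with Nts, Actg2, Ccl19 and Has2 among its leading genes, lay between both programmes with 18 members on the pericyte and 19 on the smooth muscle side. The cycling group held 16 KO and 7 WT members at a median of 16326 UMIs, and 22 of its 23 members were on the pericyte side. The last group, of 26 KO and 13 WT members, was led by matrix and phagocyte genes such as Dcn and C1qc, with 15 mixed members, and has no name. Sizes are not compared between the libraries, since genes that define the groups differ between them.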

How the data were processed

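The authors deposited, for each of the KO and WT libraries, a matrix of UMI counts for 55487 features over all barcodes; per the submitters' processing notes the build was GRCm38 and the tools were Seurat 4.0.1, STAR 2.7.8a and STARsolo 2.7.9a, and settings and annotation release were not given in the sources used here. The deposited matrices hold 3331422 barcodes and 138667420 UMIs for KO and 2821644 barcodes and 121703522 UMIs for WT. Files hold raw counts with no cell types, so members were taken by the marker rule. Other cell types were gated in the same way. Endothelial cells were gated on Cdh5, Pecam1 and Kdr, and fibro-adipogenic cells on Pdgfra. Phagocytes were gated on Csf1r, C1qa and Adgre1, and myogenic cells on Cdh15, Pax7, Myf5, Myod1 and Myog. Each gate also allowed at most 2 UMIs over the 5 mural genes of the rule. It allowed at most 2 over those of Cdh5, Csf1r, Pdgfra and Cdh15 that mark the other types.

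UMI counts of members were summed per library and divided by the library's summed total to give CPM. Exact Poisson intervals were set on CPM, conditional binomial intervals on ratios and Clopper-Pearson intervals on shares, all at 95% and for counting error only; for a share of 0 the limit given is 3 counts of the total. Log2 ratios used CPM plus 5, so they understate the change of low genes. No p-value was computed, because each group has 1 library. Doublets were not removed in the values of the report. Scrublet's own threshold marked 0 barcodes, so the highest scores, 0.8% for each 1000 barcodes, were removed as an alternative. Clusters came from Leiden clustering on 15 principal components of 2000 variable genes. Gene positions are from GENCODE for GRCm38 and promoters from RefSeq (GRCm38.p6). Python 3.11.15, numpy 2.4.6, scipy 1.17.1, scanpy 1.11.5 and leidenalg 0.10.2 were used, and the ratio step was tested on simulated counts with 200 changed genes.

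The members and gene lists were chosen with earlier results of these data known. Named genes were the rule's genes, the 10 highest and 10 lowest when ranked by whichever limit of the ratio's interval was closer to 1, up to 4 most abundant and 4 most different genes of each list, Setdb1 with its partners, and the 15 genes most enriched in members. Mitochondrial, ribosomal protein, haemoglobin, immunoglobulin and unnamed genes were left out. Some named genes are not reported here. Cspg4, Ednra, Mgp and Mki67 were also chosen after their values were seen. The alternatives were other UMI minimums, marker limits, scales, pseudocounts, ambient subtraction and member sets.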

Additional observations from a re-analysis of the deposited data

Results flagged for a closer look

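Rgs5, Actg2 and Lum had KO over WT ratios on opposite sides of 1 in the 2 ranges of mural members, with counting intervals that exclude 1 on both. Rgs5 had a ratio of 1.37 on the pericyte side and 0.892 on the smooth muscle side. Actg2 had a ratio of 5.50 on the pericyte side, where KO had 59.0 CPM and WT 10.7 CPM, and 0.400 on the smooth muscle side. Its UMIs helped to place members on a side, so its level within each side depends on the split itself. Lum, a proteoglycan of fibroblasts, had a ratio of 0.202 on the pericyte side, where 1 WT member held 60 of the 100 WT UMIs of all members, and 4.96 on the smooth muscle side from 14 KO and 2 WT UMIs. All 14 of those KO UMIs were in 1 member. In each case the difference between the sides was not tested, since there is 1 library per group.

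Barcodes outside the depth limit also carried the mural signal: 95 KO and 75 WT barcodes with 2000 to 4999 UMIs passed the same marker and mitochondrial rule. They were left out of the values of the report and enter with the minimum of 2000 UMIs.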

How the results depend on the processing

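No paired analysis was possible because each group has 1 library. In all, 1086 alternative values were computed. Of these, 940 stayed within a set band, 128 moved further and 18 turned the sign of a value whose interval lay on 1 side of no difference. The band was the counting interval for shares and a factor of 1.5 for counts of genes or clusters. For single genes it was the counting interval joined with 1 of the same width around the log2 ratio. For list medians it was as wide as the typical single-gene interval of the list. That is a loose limit for a median, so the 940 does not measure how stable the medians are. Other ratios near 1 crossed it too, those of Kcnj8, Abcc9, Notch3, Pdgfrb and Atf7ip. The removal of mixed members, the removal of the highest member of each gene and the lifted limit on other markers were chosen after seeing the data. The number of genes at least 2-fold higher in KO was 29 in the report, 50 with a minimum of 10000 UMIs, 59 with other markers at 0, 45 with the top Scrublet scores removed and 58 without mixed members. The number at least 2-fold lower was 39 in the report, 22 with a minimum of 2000 UMIs and 8 without the highest member of each gene. The ratio of mural shares was 1.03 with a minimum of 2000 UMIs and 1.11 with no limit on other markers; under the other limits tried it ran from 1.51 to 1.89. The ratio of pericyte side shares ran from 1.03 to 1.46 and stayed above 1 in all settings tried. The cause of these shifts was not tested beyond what each setting removes.

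The log2 ratios that turned were as follows. With a minimum of 10000 UMIs Higd1b stood at 0.24. With other markers at 0, Higd1b stood at 0.036, Spp1 at -1.10, Prg4 at 0.21, Abi3bp at 0.16, Cpxm1 at 0.71 and Lum at 0.96. With the top Scrublet scores removed, Cxcl2 stood at 0.57 and Actg2 at 0.42. With every member weighted alike, Ccl4 stood at 0.10. Without mixed members, Spp1 stood at -0.82, Prg4 at 0.48, Abi3bp at 0.21, Cpxm1 at 0.17, Thbs4 at 0.090 and Lum at 0.90. Without the highest member of each gene, Prg4 stood at 0.31 and Abi3bp at 0.027. The median over all genes was 0.06 with the total taken without mitochondrial and ribosomal protein genes, 0.05 without mixed members and 0.07 with every member weighted alike. With 87 to 134 members and about 10000 UMIs each, genes below 50 CPM rest on few UMIs, and no alternative can replace a second animal.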

Other observations

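Genes outside the lists also followed the range between pericyte and smooth muscle members, and did so in both libraries; sides were set on 8 other genes of the same cells, so these are descriptions. On the pericyte side, Arhgdib, a gene best known from blood cells, had 732 CPM in KO and 857 CPM in WT, against 69.5 CPM in KO and 63.5 CPM in WT on the smooth muscle side. Slc16a12, a monocarboxylate family transporter, had 46.3 CPM in KO and 51.9 CPM in WT there, and no UMI on the smooth muscle side in either library. Arhgdib and Cd52 are also phagocyte genes, and 12 KO and 13 WT mixed members were on the pericyte side.

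On the smooth muscle side, Pln, which encodes phospholamban, the inhibitor of the sarcoplasmic calcium pump, had 649.6 CPM in KO and 559 CPM in WT, against 41.8 CPM in KO and 8.95 CPM in WT on the pericyte side. Sorbs2, an adaptor of focal adhesions, had 751 CPM in KO and 657 CPM in WT, against 42.7 CPM in KO and 62.6 CPM in WT on the pericyte side. P2rx1, the ATP-gated channel through which sympathetic nerves contract arterioles, had 105 CPM in KO and 97.9 CPM in WT, against 8.17 CPM in KO and 7.16 CPM in WT on the pericyte side. Itga8, an integrin chain of smooth muscle, had 161 CPM in KO and 129.7 CPM in WT, against 9.08 CPM in KO and 8.95 CPM in WT on the pericyte side.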
